A study of Saccharomyces cerevisiae with 16 samples.

Results

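The flocculin genes FLO1, FLO5, FLO9, FLO10 and FLO11 of Saccharomyces cerevisiae and the gene of their transcriptional activator, FLO8, were taken by name through the open reading frame names printed in the array files. These 6 genes had 1 probe each among 6256 gene probes, every probe was printed in 2 spots, and each of the 6 probes was well above background on all 16 arrays. The reading frames are YIR019C (FLO11), YAR050W (FLO1), YHR211W (FLO5), YAL063C (FLO9), YKR102W (FLO10) and YER109C (FLO8). The second letter of such a name gives the chromosome, which puts FLO1 and FLO9 on the opposite arms of chromosome I, FLO5 on VIII, FLO10 on XI, FLO11 on IX and FLO8 on V.

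The flocculins are large, mannose-rich proteins of the outer cell wall. FLO1, FLO5, FLO9 and FLO10 encode lectin-like proteins that bind sugar chains on neighbouring cells and so gather cells into flocs, and FLO11 (also called MUC1) encodes an adhesin needed for sticking to surfaces, invasive and filamentous growth and, in flor yeasts, biofilm at the surface of wine. FLO11 has an unusually long promoter on which the protein kinase A pathway acts through Flo8 and Sfl1, the filamentous growth MAP kinase pathway acts through Ste12 and Tec1, and repressors such as Nrg1, Nrg2 and Sok2 act as well.

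The wine yeast Lalvin EC1118 fermented an artificial wine must at 22 °C on 1 side of a dialysis membrane. In the mixed fermentations the spoilage yeast Dekkera bruxellensis, strain ZIM 701, grew on the other side of the membrane in the same reactor, and in the control fermentations that side held no yeast. Cells of S. cerevisiae were collected at 22 h, during exponential growth, at 92 h and 144 h, when the culture was in early and then late stationary phase, and at 187 h, while it declined. This gave 8 groups with n = 2 arrays each, 8 arrays from mixed and 8 from control fermentations. Fermentations were run in duplicate, but the labels leave unsaid whether 1 vessel was sampled at all 4 times. If so, the p-values of averages over times treat repeated samples of a vessel as independent. The replicate number was also the slide, and on both slides the mixed arrays occupied row 1 and the controls row 2, with 1 column per time, so that kind and time cannot be told apart from place on the slide.

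Levels are log2 signals minus the array's 75th percentile, so -3 is well below and 0 equals that percentile, and levels of different probes are not compared. Between 95.4 and 98% of the gene probes were well above background on each array. The log2 75th percentile itself lay between 12.4 and 12.9 at 22 h and between 10.5 and 11.4 at 187 h. A first principal component held 73.9% of the variance. The general yeast genes ACT1, TDH3 and PGK1 were well above background on all 16 arrays, as were 5 of the 6 a-cell genes and 2 of the 4 alpha-cell genes looked at. The haploid-cell genes STE4, STE18, FUS3, GPA1, HO and RME1 were so as well. Most probes met this mark, so it does not tell the cell type. Since RNA came from whole cultures, fewer cells that express a gene and less of its RNA in each cell cannot be told apart.

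FLO11 was the only flocculin gene whose average difference between the kinds of fermentation passed the test, and it was lower beside D. bruxellensis. It passed at no single time, its call in the average was lost in some alternatives given below, and it was not tested against the other members. Averaged over the 4 times its level was 2.06-fold lower in mixed than in control fermentations, while the average differences of FLO1, FLO5, FLO9, FLO10 and FLO8 lay between -0.17 and 0.065 on the log2 scale and did not pass the test. The gap was present on both slides at 92, 144 and 187 h and went in opposite directions on the 2 slides at 22 h.

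At 22 h, in exponential growth, FLO11 stood at -3.06 and -3.22 in mixed fermentations (slides 1 and 2), against -3.56 and -1.74 in controls. The mixed arrays lay between the controls, whose gap was the widest between duplicates of any of the 6 genes. At 92 h FLO11 stood at -4.30 and -3.58 in mixed fermentations and at -3.09 and -2.66 in controls. At 144 h the values were -2.91 and -3.30 in mixed fermentations and -1.96 and -1.94 in controls. At 187 h they were -2.81 and -3.04 in mixed fermentations and -1.49 and -1.44 in controls. From 92 h on, both mixed arrays thus lay below both controls at each time, and the control duplicates of 144 h and 187 h were nearly superposed.

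The log2 difference of FLO11, mixed minus control, was -0.49 ± 0.44 at 22 h (SE, n = 2 arrays per group, limma adjusted p = 0.882), with 0.50 on slide 1 and -1.48 on slide 2. It was -1.06 ± 0.44 at 92 h (limma adjusted p = 0.815), with -1.21 and -0.92 on the slides, and -1.16 ± 0.44 at 144 h (adjusted p = 0.478), with -0.96 and -1.36. At 187 h it was -1.46 ± 0.44 (limma adjusted p = 0.0666), a 2.76-fold lower level, with -1.33 and -1.60 on the slides. At each of the 4 times alone, then, the difference of FLO11 did not pass the threshold of 0.05 after adjustment over 6184 genes. The unadjusted p-values were 0.29 at 22 h, 0.035 at 92 h, 0.024 at 144 h and 0.00689 at 187 h. The fit pools the spread of duplicates over all 8 groups, so FLO11 has the same SE at each time. Its duplicates had an SD of 1.28 in controls at 22 h, against 0.16 in mixed and 0.034 in control fermentations at 187 h. The FLO11 test at 187 h thus also carries the spread of the 22 h controls, as do its tests of later steps in time.

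Averaged over the 4 times, FLO11 fell by 1.04 ± 0.22 log2 units in mixed against control fermentations (8 arrays per kind, limma adjusted p = 0.0238), with -0.75 on slide 1 and -1.34 on slide 2. Its mean level over 8 arrays was -3.28 in mixed fermentations (lowest -4.30, median -3.14, highest -2.81) and -2.23 in controls (lowest -3.56, median -1.95, highest -1.44). The difference was the 4th largest fall among the 6184 genes tested, and 34 genes, FLO11 included, differed by at least as much in either direction. Of the 6 genes 1 passed in this comparison, FLO11, where 8.59% of all genes did, 199 higher and 332 lower in mixed fermentations. That split of all genes depended on scaling, with 131 higher and 4 lower when arrays were scaled to spike-in probes, 261 and 209 with the median of each array, and 245 and 254 in the deposited values.

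The fall of FLO11 kept its direction under every alternative run, at -1.27 to -0.82, and its call was lost in some of them. Without the 144 h difference the average was -1.01 (limma adjusted p = 0.0737), without the 187 h difference -0.90 (adjusted p = 0.164), and with 1 mean per vessel, which assumes 1 vessel sampled 4 times, -1.04 (adjusted p = 0.197, 2 values per kind). The call was also lost without any 1 of 5 arrays, at limma adjusted p-values of 0.0558 without mixed 92 h slide 1, 0.0569 without mixed 144 h slide 2, 0.0519 without control 187 h slide 1, 0.0724 without control 92 h slide 2 and 0.0638 without control 144 h slide 2.

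**Figure D1:**
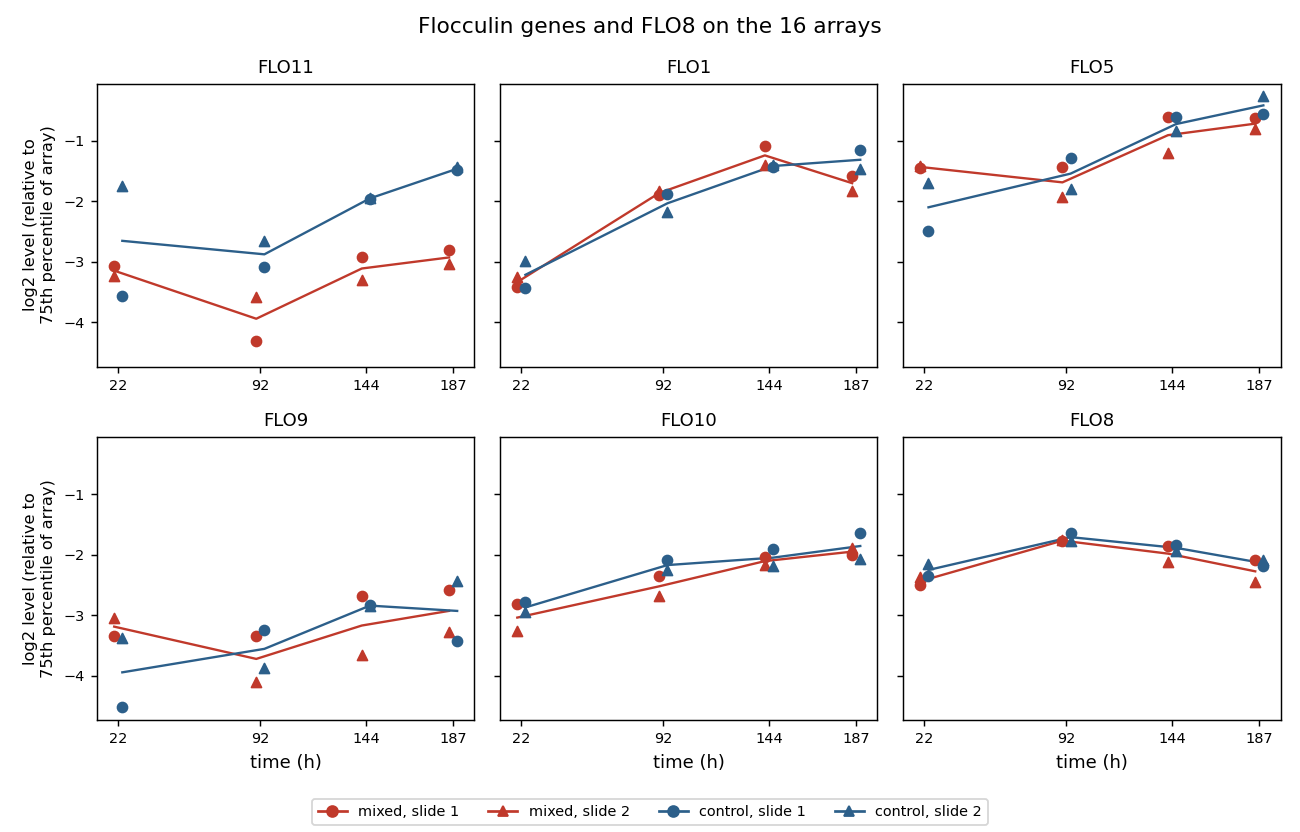
Log2 level minus the array's 75th percentile (vertical axis, the same range in all panels) against time in hours for FLO11, FLO1, FLO5, FLO9, FLO10 and FLO8. Red marks are mixed and blue marks control fermentations, circles slide 1 and triangles slide 2, and lines join the means of the 2 arrays. From 92 h on, the red marks of FLO11 lie below the blue ones, and those of the other genes mostly run together.

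FLO1, FLO5 and FLO9 encode close relatives with shared lectin domains, and their reading frames share long similar stretches, so that 1 probe may read more than 1 of them and the gene named is uncertain. FLO1 stood at -3.42 and -3.24 in mixed fermentations against -3.44 and -2.99 in controls at 22 h, and at -1.90 and -1.83 against -1.88 and -2.18 at 92 h. It stood at -1.09 and -1.39 in mixed fermentations against -1.44 and -1.39 in controls at 144 h, and at -1.58 and -1.82 against -1.16 and -1.47 at 187 h. Both mixed arrays lay below both controls only at the last time, by 0.39 ± 0.19 log2 units, and the difference did not pass the test (n = 2 per group, limma adjusted p = 0.194). Its average difference between kinds was -0.040 ± 0.093 (limma adjusted p = 0.802).

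FLO5 began on the opposite side. At 22 h it stood at -1.45 and -1.42 in mixed fermentations, above both controls at -2.49 and -1.70, a difference of 0.67 ± 0.29 (n = 2 per group, unadjusted p = 0.0398, limma adjusted p = 0.784). At 92 h it stood at -1.44 and -1.93 in mixed fermentations and -1.29 and -1.79 in controls, and at 144 h at -0.61 and -1.21 in mixed fermentations and -0.61 and -0.83 in controls. By 187 h the order of the groups had turned, with -0.63 and -0.80 in mixed fermentations below -0.56 and -0.27 in controls. The change of that difference between 22 h and 187 h was -0.97 ± 0.41 and did not pass the test (limma adjusted p = 0.277), and the average over times was 0.0092 ± 0.14 (adjusted p = 0.974).

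FLO9 and FLO11 had the most uneven duplicates of the 6 genes, with the largest standard errors in the fit. Its levels at 22 h were -3.34 and -3.04 in mixed fermentations, above -4.52 and -3.37 in controls, a difference of 0.75 ± 0.47 (n = 2 per group, limma adjusted p = 0.86). At 92 h they were -3.35 and -4.10 in mixed fermentations and -3.24 and -3.87 in controls, and at 144 h -2.68 and -3.67 in mixed fermentations and -2.84 and -2.84 in controls. At 187 h the mixed arrays, at -2.58 and -3.28, lay inside the range of the controls, at -3.42 and -2.44. The slide-1 control value at that time joined 2 spots with signals of 320 and 138, and the brighter spot alone would put it at -2.81, which changes the difference at 187 h from 0.00057 to -0.30 and the average over times from 0.065 to -0.011. None of these FLO9 values passed the test.

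FLO10, a lectin-like flocculin whose product also serves in adhesion, stood at -2.82 and -3.26 in mixed fermentations and -2.79 and -2.95 in controls at 22 h, and at -2.36 and -2.68 against -2.09 and -2.26 at 92 h. It stood at -2.04 and -2.18 in mixed fermentations and -1.91 and -2.19 in controls at 144 h, and at -2.01 and -1.90 against -1.64 and -2.07 at 187 h. The mixed arrays were below both controls at 92 h alone, by 0.35 ± 0.19 log2 units (n = 2 per group, limma adjusted p = 0.993), and the average over times was -0.17 ± 0.097 (adjusted p = 0.285).

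FLO8 encodes an activator that acts downstream of protein kinase A and is needed for the expression of FLO1 and FLO11. The RefSeq annotation of the laboratory strain lists it as a pseudogene, and whether the EC1118 copy is intact was not analysed here. FLO8 stood at -2.50 and -2.38 in mixed fermentations and -2.36 and -2.15 in controls at 22 h, at -1.78 and -1.76 against -1.64 and -1.78 at 92 h, at -1.85 and -2.12 against -1.84 and -1.94 at 144 h, and at -2.09 and -2.46 against -2.20 and -2.09 at 187 h. Its duplicates were the tightest of the 6 genes in the fit, and its average difference between kinds was -0.12 ± 0.076 (8 arrays per kind, limma adjusted p = 0.327).

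With single times, no member passed at 22 h, 92 h, 144 h or 187 h in the limma fit, where 0, 0.0162, 0 and 7.28% of all genes passed. At an unadjusted p under 0.05 each time had 1 member, FLO5 at 22 h and FLO11 at 92, 144 and 187 h, beside 390, 348, 568 and 1792 genes of all. Without overlap between groups, and counted at each of 92, 144 and 187 h together, 1 member, FLO11, had both mixed arrays below both controls, which held for 8.65% of all probes. At single times the members below both controls were FLO8 at 22 h (21% of all probes), FLO11 and FLO10 at 92 h (22.2%), FLO11 at 144 h (25.8%) and FLO11, FLO1 and FLO5 at 187 h (33.7%). Those above both controls were FLO5 and FLO9 at 22 h (13.2%) and FLO1 at 144 h (15.9%). For FLO1 this was nearly a tie, with mixed slide 2 at -1.391 and control slide 2 at -1.393. Whether the difference between kinds itself changed from 22 h to 187 h was tested for each gene. For FLO11 the change was -0.97 ± 0.63 (limma adjusted p = 0.456), no member passed, and 0% of all genes did, with 1002 genes at an unadjusted p under 0.05.

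**Figure D2:**
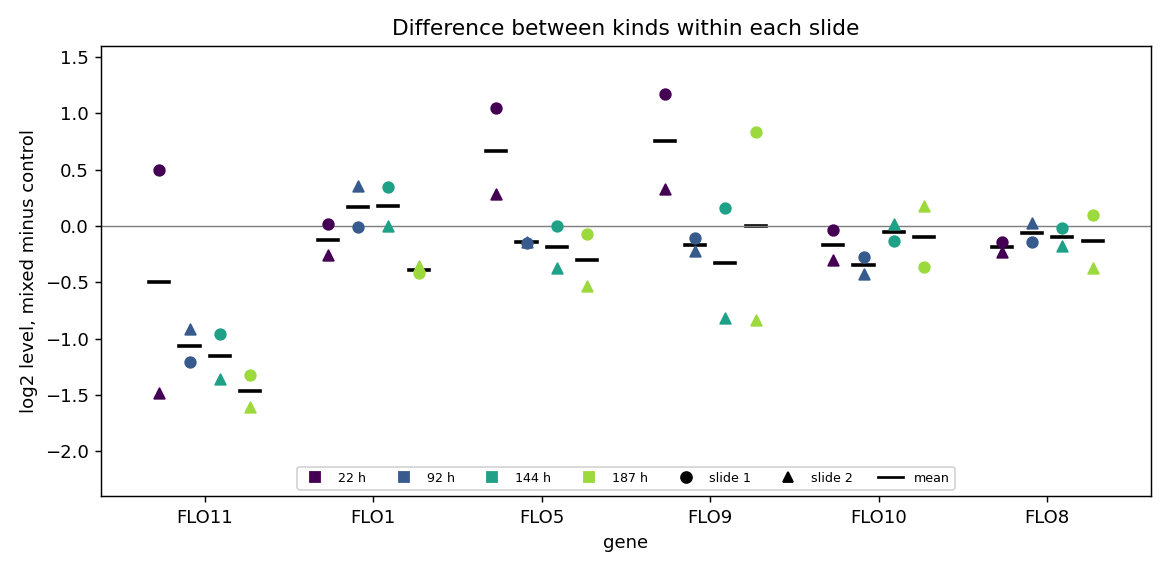
Difference in log2 level, mixed minus control (vertical axis), within each slide for the 6 genes, with times in order from left to right in colour, circles for slide 1, triangles for slide 2 and a bar at the mean of both. For FLO11 the marks of 92, 144 and 187 h lie between -1.60 and -0.92 and those of 22 h at 0.50 and -1.48. FLO5 and FLO9 stand above 0 on both slides at 22 h, at 1.04 and 0.29 and at 1.18 and 0.33, and FLO9 shows 0.84 and -0.84 at 187 h. All marks of FLO1, FLO10 and FLO8 lie between -0.43 and 0.35.

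All 6 genes had a higher mean level over the 2 arrays at 187 h than at 22 h in both kinds of fermentation, which was not tested as such, and the steps that passed the test differed between genes. These steps are averages over mixed and control fermentations (4 arrays per time) and are relative to the 75th percentile of all genes. With spike-in probes as the scale the median of all genes moved to -1.09, -0.353 and -0.323 in the 3 steps, against 0.074, -0.057 and -0.062 with the 75th percentile, so a rise below means a rise relative to the bulk of yeast transcripts.

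Between 22 h and 92 h FLO1, FLO10 and FLO8 passed the test, all upward. FLO1 was higher at 92 h by 1.33 ± 0.13 log2 units, or 2.51-fold (limma adjusted p = 4.97e-06), with 1.54 and 1.11 on the slides. FLO10 was higher by 0.61 ± 0.14 (adjusted p = 0.00224) and FLO8 by 0.61 ± 0.11 (adjusted p = 0.000401). FLO11 differed by -0.51 ± 0.31 (adjusted p = 0.174), FLO5 by 0.15 ± 0.20 (0.534) and FLO9 by -0.073 ± 0.33 (0.86), which did not pass. Among all genes 65.3% passed in this step, so the count of 3 in 6 is not set apart from the background. Scaled to spike-in probes FLO1 differed by 0.17, FLO10 by -0.55 and FLO8 by -0.55, none of which passed, and these lay 1.26, 0.537 and 0.535 above the median of all genes on that scale. On that scale FLO5 (-1.01), FLO9 (-1.23) and FLO11 (-1.67) passed as falls in their place, and FLO11 also passed as a fall with quantile normalization (-0.76, limma adjusted p = 0.035). The FLO11 value passed likewise, at -0.96, once the slide-1 control array of 22 h was left out (limma adjusted p = 0.00106), and it was -0.054 (adjusted p = 0.814) without the slide-2 control array of that time.

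Between 92 h and 144 h FLO1 and FLO5 passed, again upward, where 15.4% of all genes passed. FLO1 was higher at 144 h by 0.62 ± 0.13 (limma adjusted p = 0.0122) and FLO5 by 0.80 ± 0.20 (adjusted p = 0.0242), with slides at 0.63 and 0.61 for FLO1 and at 0.76 and 0.84 for FLO5. FLO11 differed by 0.88 ± 0.31 (adjusted p = 0.08) and FLO9 by 0.63 ± 0.33 (0.216), FLO10 by 0.27 ± 0.14 (0.203) and FLO8 by -0.20 ± 0.11 (0.232), which missed the threshold. FLO11 passed as a rise with quantile normalization, at 1.02 (limma adjusted p = 0.0331), and when only arrays of these times were fitted (adjusted p = 0.0196). With spike-in scaling FLO1 was at 0.32 and FLO5 at 0.50 and neither passed, 0.675 and 0.856 above the median of all genes. The FLO5 call was lost without any 1 of 4 arrays (adjusted p up to 0.115) and the FLO1 call without the slide-2 control array of 92 h (0.0643).

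Between 144 h and 187 h none of the 6 genes passed in the limma fit, where 11.3% of all genes did. FLO8 came nearest, at -0.27 ± 0.11 (4 arrays per time, unadjusted p = 0.0263, limma adjusted p = 0.114), and FLO11 was at 0.34 ± 0.31 (adjusted p = 0.487). The other values were -0.18 for FLO1, 0.25 for FLO5, 0.077 for FLO9 and 0.17 for FLO10.

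**Figure D3:**
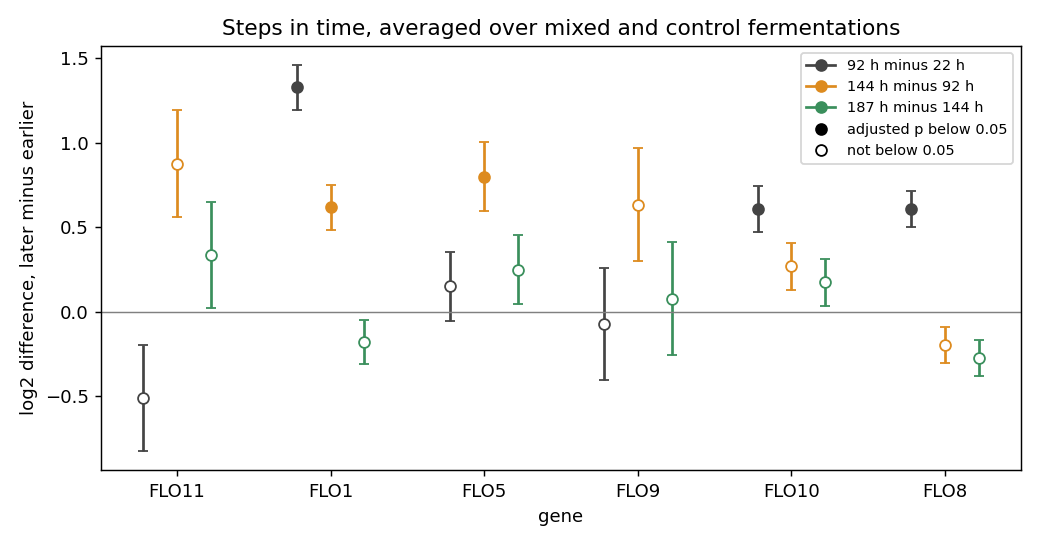
Log2 difference, later minus earlier, averaged over mixed and control fermentations, with bars of 1 SE from the fit (4 arrays per time), for the 3 steps in time and the 6 genes; filled marks have a limma adjusted p below 0.05. FLO1 stands highest at 1.33 in the first step, and FLO1 and FLO5 carry the filled marks of the second step.

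The stretch from 92 h to 187 h was also taken within each kind, a comparison added after the data were seen. In mixed fermentations, where 41.9% of all genes passed, FLO5 was higher at 187 h than at 92 h by 0.97 ± 0.29 (n = 2 arrays per time, limma adjusted p = 0.0192) and FLO10 by 0.57 ± 0.19 (adjusted p = 0.0349), and FLO8 was lower by 0.51 ± 0.15 log2 units (adjusted p = 0.0199). FLO11 differed there by 1.01 ± 0.44 (adjusted p = 0.0871), and passed with quantile normalization at 1.34 (adjusted p = 0.022). The FLO8 call in mixed fermentations was lost with that scaling at -0.26 (adjusted p = 0.131), with array medians, with spike-in scaling and with normexp. In control fermentations FLO11 was higher by 1.41 ± 0.44, or 2.66-fold (n = 2 arrays per time, limma adjusted p = 0.0343), FLO1 by 0.72 ± 0.19 (adjusted p = 0.0159) and FLO5 by 1.13 ± 0.29 (adjusted p = 0.0149), and 30% of all genes passed. FLO8 was at -0.43 ± 0.15 in controls and just missed the threshold (limma adjusted p = 0.0508), and it passed in 4 of 10 alternative settings (adjusted p down to 0.0338). The difference between these stretches of FLO11, mixed minus control, was -0.40 ± 0.63 (limma adjusted p = 0.854), so a smaller rise in mixed fermentations was not shown. With spike-in scaling none of the 6 values named as passing here did so, and the FLO11 call in controls was lost when any 1 of the 4 arrays compared was left out (adjusted p = 0.0966 to 0.161). The other calls were lost without some single arrays as well. In mixed fermentations the calls of FLO5 and FLO10 were each lost without 187 h slide 1, 92 h slide 2 or 187 h slide 2 (limma adjusted p up to 0.142 and 0.216), and that of FLO8 without 92 h slide 1, 92 h slide 2 or 187 h slide 2 (up to 0.159). In controls that of FLO1 was lost without 187 h slide 1 or 92 h slide 2 (limma adjusted p = 0.119 and 0.137) and that of FLO5 without 92 h slide 2 or 187 h slide 2 (0.131 and 0.0758).

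The regulators of the flocculin genes were read from a list of 51 genes, 16 of the protein kinase A branch, 13 of the filamentous growth MAP kinase branch, 14 other activators and 8 other repressors. Averaged over times 2 of the 51 were higher in mixed than in control fermentations and 0 lower, where 8.59% of all genes passed, with a median difference of -0.030 beside -0.034 for all 6184 genes. The regulators that passed were NRG1, whose zinc finger protein represses FLO11 and glucose-repressed genes, and RIM8, whose arrestin-like protein serves in the alkaline pH pathway that ends in Rim101, a repressor of NRG1. With spike-in scaling, with a random vessel block and without the 144 h or the 187 h difference, 0 of the 51 passed. The 2 calls were also lost with vessel means (limma adjusted p = 0.24 and 0.258), and they were each lost without at least 11 of the 16 arrays taken singly.

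NRG1 stood at 3.16 and 3.65 in mixed fermentations and at 2.15 and 2.31 in controls at 187 h, a gap of 1.17 ± 0.25 (n = 2 per group, limma adjusted p = 0.0309). That call was lost with spike-in scaling (adjusted p = 0.489), when only arrays of 187 h were fitted (0.262), and without control 92 h slide 1 or 2, control 187 h slide 1 or mixed 187 h slide 2 (up to 0.192). At 144 h it stood at 1.77 and 2.28 in mixed fermentations and 1.70 and 1.16 in controls, at 92 h at 1.50 and 1.27 against 1.17 and 1.10, and at 22 h at -0.22 and -0.23 against -0.0014 and -0.60. Both mixed arrays lay above both controls at each of 92, 144 and 187 h, as did those of 5.17% of all probes. The average difference was 0.52 ± 0.13 (8 arrays per kind, limma adjusted p = 0.0317). RIM8 stood at 1.99 and 2.58 in mixed fermentations and at 1.84 and 1.84 in controls at 187 h, and at 2.20 and 2.21 against 1.69 and 1.61 at 144 h. Neither difference passed (limma adjusted p = 0.126 and 0.384). Its group means were 1.80 against 1.48 at 92 h and 0.18 against 0.13 at 22 h. The average difference of RIM8 was 0.34 ± 0.087 (limma adjusted p = 0.0373).

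Among regulators that did not pass in the average over times, TPK2 (the protein kinase A subunit required for filamentous growth) was at -0.18 ± 0.078 (limma adjusted p = 0.159). MSB2, a mucin-like sensor upstream of the filamentous growth kinases, was at -0.27 ± 0.083 (adjusted p = 0.0658) and STE7, the MAP kinase kinase of that branch, at 0.18 ± 0.067 (adjusted p = 0.114). At 187 h NRG1 was the 1 regulator of 51 that passed, where 7.28% of all genes did, and with the trend and robust variance model 1 was higher and 2 were lower. The values nearest to the threshold in the protein kinase A branch were those of TPK3, at -0.65 ± 0.19 (limma adjusted p = 0.0569), and the adenylate cyclase gene CYR1, at -0.47 ± 0.14 (adjusted p = 0.0617). STE11 was at -0.36 ± 0.12 (adjusted p = 0.0748) and STE20 at -0.36 ± 0.15 (adjusted p = 0.141), both kinases of the filamentous growth branch.

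**Figure D4:**
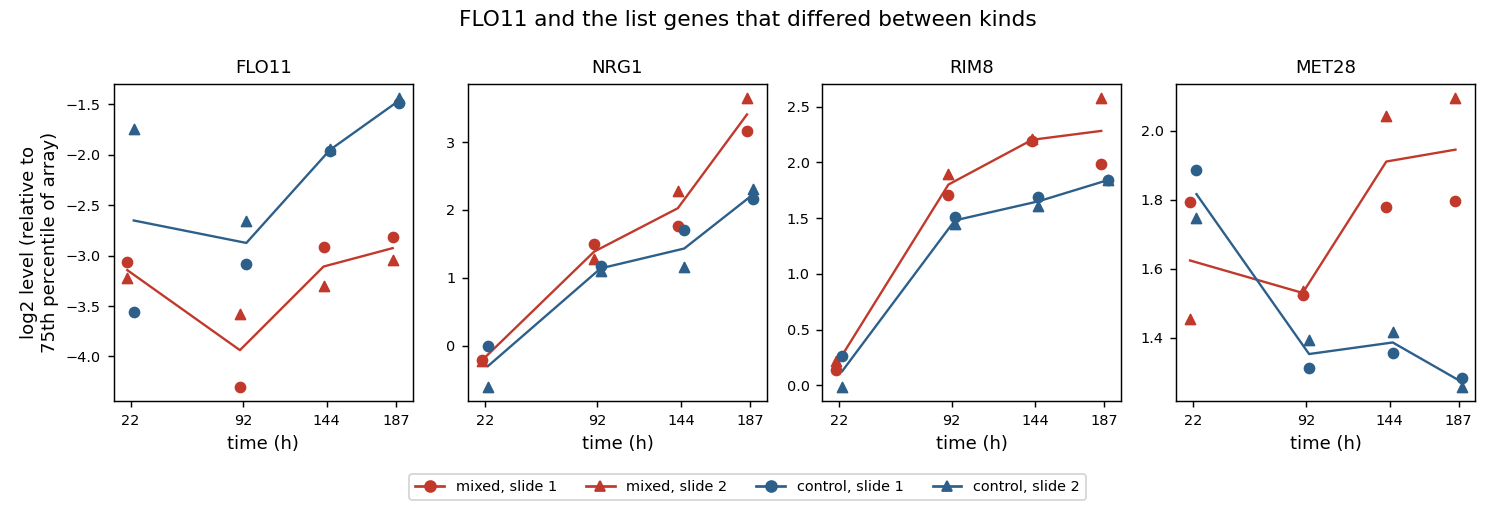
Log2 level minus the array's 75th percentile (vertical axis, a separate range in each panel) against time in hours for FLO11, the regulators NRG1 and RIM8, and MET28, a neighbour of FLO11. Red marks are mixed and blue marks control fermentations, circles slide 1 and triangles slide 2, and lines join means of 2 arrays; at 187 h NRG1 stands at 3.16 and 3.65 in mixed fermentations and at 2.15 and 2.31 in controls.

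Most calls of regulators in the 3 steps in time fell in the first step, as did most calls of all genes. Between 22 h and 92 h 27 of the 51 passed upward and 5 downward, where 65.3% of all genes passed. With spike-in scaling these counts were 1 upward and 35 downward. The number of regulators that passed in this step is thus not set apart from the background. Their split by direction was not compared with that of all genes. The repressor genes NRG2 (3.13 ± 0.18, limma adjusted p = 8.1e-08) and NRG1 (1.52 ± 0.18, adjusted p = 1.82e-05) were higher at 92 h, as were HDA1, a histone deacetylase gene, at 0.44 and SOK2 at 0.34, and CYC8, of the Cyc8-Tup1 corepressor, was at -1.08. In the protein kinase A branch YAK1, a kinase that opposes growth, was at 1.40, and PDE1, a cyclic AMP phosphodiesterase gene, and TPK2 were both at 0.69. In the MAP kinase branch STE7 was at 1.09, OPY2 at 1.04, KSS1 at 0.60 and STE11 at 0.54, while CDC42 at -0.60, SHO1 at -0.53 and the transcription factor gene STE12 at -0.38 were lower. Of the other activators RIM8 at 1.49, PHD1 at 0.84, MGA1 at 0.67 and RIM101 at 0.54 were higher, and SWI5, a cell cycle transcription factor gene, was at -1.86. The calls of MGA1, HDA1 and KSS1 were lost with quantile normalization (limma adjusted p = 0.119, 0.113 and 0.991) and with normexp (0.112, 0.0629 and 0.834).

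Between 92 h and 144 h 2 of 51 regulators passed upward and 4 downward, beside 15.4% of all genes. They were PDE1 (0.50) and the kinase gene SNF1 (0.33) upward, and PDE2 (-0.71), STE50 (-0.40), MIG1 (-0.38) and RIM13 (-0.38) downward. Between 144 h and 187 h 4 passed upward and 1 downward, beside 11.3% of all genes. NRG1 was higher by 1.09 ± 0.18 (4 arrays per time, limma adjusted p = 0.00751) and TEC1, whose product binds the FLO11 promoter with Ste12, by 1.04 ± 0.17 (adjusted p = 0.00683), with RIM101 at 0.38, the Ras inhibitor gene IRA2 at 0.33 and STE50 at -0.57. With spike-in scaling 0 of the 51 passed in either of these steps. When only arrays of 144 h and 187 h were fitted, 1 passed upward and 0 downward in the step to 187 h. TEC1, STE50, RIM101 and IRA2 then had limma adjusted p-values of 0.0555, 0.0658, 0.0967 and 0.125. In the step to 144 h the calls of RIM13 and MIG1 were lost with array medians (limma adjusted p = 0.0687 and 0.0729) and that of SNF1 with normexp (0.0571). Every regulator call of that step was lost without some single arrays, those of SNF1, RIM13 and MIG1 without many. In the step to 187 h those of RIM101 and IRA2 were lost without many single arrays.

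Reading frames that resemble flocculin genes and other adhesins were read from a list of 8, of which 6 had a probe (YHR213W, YAR062W, YAL065C, AGA1, FIG2 and SAG1). None of the 6 passed in the average over times in the limma fit, where 8.59% of all genes did, with a median of 0.069 beside -0.034 for all genes, and FIG2, a mating adhesin, was nearest at 0.21 ± 0.11 (8 arrays per kind, unadjusted p = 0.0696, limma adjusted p = 0.218). At 187 h 0 of 6 passed as well, beside 7.28% of all genes, with FIG2 at 0.46 (adjusted p = 0.173). In time YHR213W and YAR062W were lower at 92 h than at 22 h, at -0.92 ± 0.32 (limma adjusted p = 0.0228) and -0.97 ± 0.34 (adjusted p = 0.0252). These calls were each lost without any 1 of 4 arrays (adjusted p up to 0.0978 and 0.107). The group means of YHR213W and YAR062W lay close together, at -2.75 and -2.76 at 22 h and -4.32 and -4.28 at 187 h in mixed fermentations. Whether their probes read separate transcripts was not tested. YAL065C was higher at 144 h than at 92 h by 1.00 ± 0.30 (limma adjusted p = 0.0457). Its call was lost with the replicate block (adjusted p = 0.0512), with spike-in scaling (0.70, adjusted p = 0.208) and without any 1 of 8 arrays (up to 0.178).

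The genes next to FLO11 were read in the same way, 5 of 7 having a probe. MET28, a cofactor gene of sulfur amino acid metabolism, was higher in mixed than in control fermentations, at 0.30 ± 0.075 in the average over times (8 arrays per kind, limma adjusted p = 0.037) and at 0.68 ± 0.15 at 187 h (adjusted p = 0.0336), opposite in sign to FLO11. Its levels at 187 h were 1.80 and 2.10 in mixed fermentations and 1.28 and 1.26 in controls. The other 4, YAP5, MRS1, YIR020C and YIR020W-B, did not pass in either comparison, and YIR020W-B was well above background on 2 arrays only. Among all genes 8.59% passed in the average and 7.28% at 187 h. Between 22 h and 92 h YIR020C (0.80) and YAP5 (0.49) passed upward, and MRS1 (-0.54) and MET28 (-0.28) downward, where 65.3% of all genes passed. In the steps to 144 h and to 187 h 0 of the 5 passed. Alternatives for these steps are not given. With spike-in scaling MET28 was at 0.42 in the average and 0.64 at 187 h and did not pass (adjusted p = 0.623 and 0.998). Its call in the average was also lost with the random vessel block (adjusted p = 0.0672), without the 92, 144 or 187 h difference (0.0506, 0.178 and 0.415), with vessel means (0.242) and without any 1 of 12 arrays (up to 0.0889). Its call at 187 h was lost when only arrays of that time were fitted (limma adjusted p = 0.262) and without any 1 of 5 arrays (up to 0.188).

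Over the 16 arrays and 5879 probes well above background on all of them, the levels most like those of FLO11 were those of ADH5 (Pearson r = 0.80), an alcohol dehydrogenase gene, AMN1 (0.78), a gene of mother and daughter cell separation, YRA1 (0.77), TIM11 (0.74) and HNT1 (0.74). FLO1 was followed most closely by SOL2, PHO23 and GAL7 (each 0.98), FLO10 by MAM3 (0.96), SDH1 (0.95) and HXT9 (0.94), and FLO8 by YEN1 (0.96), ULI1 (0.95) and OXP1 (0.94). These arrays share the course of time, which most genes follow, so the values describe likeness only. FLO5 was most like YAL065C (0.93), PIC2 and CYB2 (each 0.90), and FLO9 most like YAL065C (0.90), FLO5 (0.86) and YDR526C (0.75). YAL065C is on the list of flocculin-like reading frames, and whether its probe also reads FLO5 or FLO9 was not tested. With the mean of each time removed FLO5 and FLO9 kept a correlation of 0.90, while that of FLO1 and FLO10 changed from 0.86 to -0.016. The correlations of FLO11 with the other 5 genes ran from -0.053 (FLO8) to 0.56 (FLO5).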

How the data were processed

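Per the file headers, the scanner files came from Feature Extraction 10.7.3.1 and hold an intensity per spot after background correction, with quality flags, for one-colour (Cy3) arrays, 1 file per sample. The log2 of the processed intensity was taken, 50 outlier spots were left out, the 2 spots of a probe were averaged, and the 75th percentile of each array was subtracted. No gene spot was saturated. The value table deposited by the authors holds log2 signals that differ from the log2 of the processed intensity by 1 constant per array, to within 0.05, for at least 99.58% of probes. Its medians differ between times, so it served only as an alternative for comparisons within a time. The sources used here do not give how the authors set those constants.

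Probes well above background on at least 2 arrays were kept (6184 of 6256). A limma model with 1 mean per group (8 residual and 3.26 prior degrees of freedom) was fitted to all of them, and p-values were adjusted by Benjamini and Hochberg over all genes of a comparison, with a threshold of 0.05. Probe identifiers were matched to RefSeq locus tags for 5756 of 6256 probes. No genome of the files' build was used, so no coordinates or sequences are given. The number of arrays limits the precision. In a simulation of the average over times with 6182 genes, 34 of 50 genes shifted by 0.5 log2 units were recovered, beside 46 of those shifted by 1, 49 by 2 and 50 by 3, and 9 calls were false. Its noise was drawn independently for each array, with no part shared by a vessel or slide. These counts therefore do not cover repeated sampling of a vessel, nor tests at single times or of steps.

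The 6 genes, the regulator and neighbour lists and the alternatives were chosen with earlier results of these data known. All 6 members are named throughout. Of the lists, genes with an adjusted p under 0.05 are named, at most the 4 largest per direction, list and comparison, and otherwise those of smallest p (up to 2). This covers the average over times, 187 h and the steps in time. List genes are not named for the other comparisons, among them the stretch from 92 h to 187 h within each kind, where some passed. The values of 1 gene that this rule names are not reported here. Genes of like pattern are the 5 of highest Pearson r for FLO11 and the 3 for each other member. Models were fitted with limma 3.58.1 under R 4.3.3. Tables and plots were made with pandas 2.3.3, matplotlib 3.10.9 and numpy 2.4.6 under Python 3.11.15. Same-numbered mixed and control arrays, which share a slide, deviated together with r = -0.47, 0.24, 0.25 and 0.11 at 22, 92, 144 and 187 h, so the numbers were not taken to pair samples. As alternatives, arrays were scaled to 7 spike-in probes or to their medians or quantile-normalized, also after normexp, and the deposited table, other filters, blocks for replicate and vessel, another variance model, fits of only the times compared, and fits with single arrays or times left out were run. Normexp used the median spot signal because no mean was found in the files used here.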

Additional observations from a re-analysis of the deposited data

How the results depend on the processing

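Of the 6 genes, FLO11 passed in the average over times under each other scaling, filter, block and variance model and in the deposited table, at -1.04 to -0.93 and adjusted p-values of 0.00296 to 0.0424; the value with the replicate block was -1.04 (adjusted p = 0.0211), and the block changed no other call of a member. The number of members called in that comparison was 0 without the 144 h difference, 0 without the 187 h difference and 0 with 1 mean per vessel (all chosen after seeing the data), and 0 to 1 with single arrays left out. At 187 h it was 1 (FLO11) with normexp and with the trend and robust variance model, and 0 to 1 with single arrays left out. In the step to 144 h it was 0 with spike-in scaling and 0 to 3 with single arrays left out. The cause was not tested. Counts over all genes also moved. The average over times gave 135 calls with spike-in scaling, 216 with a random vessel block, 307, 15 and 0 without the 92, 144 and 187 h differences, 0 with vessel means and 56 to 865 with single arrays left out, beside 531. At 187 h there were 42 with spike-in scaling, 0 with the arrays of that time alone and 0 to 576 with single arrays left out, beside 450. For the step to 144 h spike-in scaling called 1.73% of all genes, beside 15.4%. For the step to 187 h it gave 51 calls and the arrays of the times compared gave 88, beside 700. Spike-in scaling gave 89 calls at 22 h, 6 at 92 h, 2 at 144 h and 15 for the change from 22 h to 187 h, beside 0, 1, 0 and 0. Quantile normalization gave 1 at 144 h and 3 for that change, the replicate block gave 1 at 22 h and 3 for that change, and the arrays of 92 h alone gave 0. From 92 h to 187 h spike-in scaling gave 1381 in mixed and 1011 in control fermentations, beside 2594 and 1855. The average over times uses all arrays, so fitting only the times compared does not apply to it, and the deposited table was not run for steps.

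Spike-in scaling, which moved the median of all genes to 0.512 for mixed minus control at 22 h and to -1.09 in the first step, turned the sign of many values. Some of these had passed as rises in the step to 92 h. At 22 h FLO11 was at 0.044, FLO1 at 0.42, FLO10 at 0.37 and FLO8 at 0.35. In the average over times FLO1 was at 0.080 and FLO8 at 0.0016, at 144 h FLO10 at 0.032 and at 187 h FLO9 at -0.037. For the change of the difference from 22 h to 187 h FLO10 was at -0.50 and FLO8 at -0.52. In the step to 92 h FLO5 was at -1.01 (adjusted p = 0.00224), FLO10 at -0.55 and FLO8 at -0.55, in the step to 144 h FLO10 at -0.027, and in the step to 187 h FLO5 at -0.012, FLO9 at -0.18 and FLO10 at -0.087. From 92 h to 187 h FLO1 was at -0.36 in mixed and FLO10 at -0.28 in control fermentations. Regulators of the step to 92 h that turned were PDE1 (-0.47), TPK2 (-0.47), STE7 (-0.076), OPY2 (-0.12), KSS1 (-0.56), STE11 (-0.63), RIM101 (-0.63), PHD1 (-0.32), MGA1 (-0.49), HDA1 (-0.72) and SOK2 (-0.82), and KSS1 was at -0.0024 with quantile normalization. All of these had passed as rises, and with spike-in scaling HDA1 and SOK2 passed as falls (limma adjusted p = 0.0294 and 0.0131). Under other settings FLO1 in the average turned to 0.0031 with array medians, 0.014 with quantile normalization, 0.014 with normexp and 0.075 without the 187 h difference. Without the 22 h difference FLO5 and FLO9 averaged -0.21 and -0.16. FLO10 turned to 0.0076 and 0.049 at 144 h and to 0.0054 and 0.0047 at 187 h with quantile normalization and normexp, and FLO8 to 0.10 at 187 h with normexp. Without the dimmer FLO9 spot the average of FLO9 was -0.011 and its 187 h value -0.30.

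With arrays left out singly, FLO11 ran from -1.40 to 0.42 at 22 h and from -1.27 to -0.82 in the average over times. The averages over times ran from -0.096 to 0.016 for FLO1, -0.089 to 0.11 for FLO5 and -0.078 to 0.21 for FLO9. At 22 h FLO1 ran from -0.34 to 0.11 and FLO10 from -0.38 to 0.048. At 92 h FLO5 ran from -0.40 to 0.11, FLO9 from -0.54 to 0.21 and FLO8 from -0.13 to 0.013. At 144 h FLO5 ran from -0.48 to 0.12, FLO9 from -0.82 to 0.17, FLO10 from -0.20 to 0.087 and FLO8 from -0.23 to 0.037. At 187 h FLO9 ran from -0.49 to 0.49, FLO10 from -0.31 to 0.12 and FLO8 from -0.32 to 0.049. The change from 22 h to 187 h ran from -0.14 to 0.29 for FLO10 and -0.13 to 0.24 for FLO8. In the step to 92 h FLO5 ran from -0.047 to 0.35 and FLO9 from -0.36 to 0.21, and in the step to 187 h FLO9 from -0.17 to 0.32.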
